A study of Mus musculus with 12 samples.

Results

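The nuclear genes for the subunits of the mitochondrial respiratory chain and ATP synthase were examined in VC1 mouse lung adenocarcinoma cells exposed to 3 electrophilic compounds. Members were taken by array symbol, as all probes whose symbol began with Ndufa, Ndufb, Ndufc, Ndufs or Ndufv and a digit, with Uqcr, with Cox and a digit from 4 to 8, or with Atp5, or was Sdha, Sdhb, Sdhc or Sdhd. The rule matched 117 of 45281 probes and 80 of 30561 genes after gene names had been updated, and it used no measured value. Of the 80 genes, 76 encode a subunit: 33 of complex I, 4 of complex II, 7 of complex III, 17 of complex IV and 15 of complex V. The other 4 only share the older naming: Dmac2l (Atp5s on the array) and Dmac2 (Atp5sl), Ndufaf2 (Ndufa12l), a complex I assembly factor, and Emc8 (Cox4nb), a subunit of the endoplasmic reticulum membrane complex. They were kept apart from the counts of subunits, and none of them was called in any comparison. Ndufa4 was counted with complex IV, where its protein is found, despite its name. Atp5f1 is an older symbol of Atp5pb, and 1 dim probe that matched no entry of the gene table kept it, so complex V counts that gene under both names, and the totals may be 1 too high. Cox7a2l, whose protein is known to join complexes III and IV, was counted with complex IV by its name. Neither Atp5f1 nor Cox7a2l was called in any comparison.

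Complex I (NADH dehydrogenase) and complex II (succinate dehydrogenase) pass electrons to ubiquinone, complex III (cytochrome bc1) passes them to cytochrome c, and complex IV (cytochrome c oxidase) to oxygen. Complexes I, III and IV pump protons across the inner membrane, and complex V (ATP synthase) uses the gradient to make ATP. Most subunits are encoded in the nucleus and a few in mitochondrial DNA, so assembly needs both sets of transcripts. The nuclear genes are known targets of the nuclear respiratory factors and the estrogen-related receptors with their PGC-1 coactivators. NRF2, the product of Nfe2l2, is a different factor from nuclear respiratory factor 1 (NRF1): KEAP1 keeps it scarce until electrophiles modify KEAP1, and it then drives antioxidant genes.

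VC1 cells are labelled as lung adenocarcinoma from a female mouse of the A/J strain and were grown in DMEM. All groups were collected 6 h after the start of treatment with the vehicle DMSO, with CDDO-Im at 0.05 µM, with CDDO-Me at 0.1 µM, or with dimethyl fumarate (DMF) at 15 µM, and had 3 arrays per group on 2 BeadChips. CDDO-Im carries an imidazolide and CDDO-Me a methyl ester on a shared synthetic triterpenoid, and the title of the series lists all 3 compounds as NRF2 activators. The doses are those of the titles and protocol, although the design text assigns 0.1 µM to CDDO-Im. Doses differed, so the compounds are set side by side and were not tested against each other, and they share the same DMSO arrays. Nothing in the labels tells if the 3 samples of a group came from different cultures. The p-values therefore measure the spread among these arrays, which may be technical. A single cell line was used, and in bulk RNA fewer cells of a kind and less RNA per cell cannot be told apart.

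The promoters of the members set the regulatory context, and a few are printed before the values. RefSeq promoters (GRCm38.p6) were given for 61 of the 76 subunit genes, 66 promoters in all, each searched from 250 bases before to 50 bases after the start. The NRF1 motif of 10 letters, a palindrome that contains the shorter GCATGCGC on both strands, occurred in 7.58% of the 66 promoters and in 0.971% of the 32851 promoters of the reference. The shorter letters GCATGCGC were present in 15.2% against 2.71%. On either strand, the estrogen-related receptor letters TCAAGGTCA occurred in 3.03% against 0.423%, and the AAGGTCA they contain in 10.6% against 4.72%. The core letters of the antioxidant response element bound by NRF2, TGACNNNGC on either strand, occurred in 13.6% against 12.4%. These matches describe the letters of the windows and are not measured binding sites. The first pair of sequences below belongs to members that passed the test without 2 arrays, Ndufa10 (chr1:92473759-92474008, minus strand) and Cox7a1 (chr7:30183921-30184170, plus strand), and the other pair shows the NRF1 motif near the start of Ndufa11 (chr17:56717512-56717761, plus strand) and Atp5g2 (chr15:102671048-102671297, minus strand). Each is the run of 250 bases before the start, read 5′ to 3′ on the gene's strand, with matches to any of the motifs in capitals.
Ndufa10: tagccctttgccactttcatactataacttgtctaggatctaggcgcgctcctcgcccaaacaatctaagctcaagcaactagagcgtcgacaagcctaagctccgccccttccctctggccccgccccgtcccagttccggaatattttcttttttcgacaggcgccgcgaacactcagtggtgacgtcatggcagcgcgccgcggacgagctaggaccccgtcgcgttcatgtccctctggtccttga
Cox7a1: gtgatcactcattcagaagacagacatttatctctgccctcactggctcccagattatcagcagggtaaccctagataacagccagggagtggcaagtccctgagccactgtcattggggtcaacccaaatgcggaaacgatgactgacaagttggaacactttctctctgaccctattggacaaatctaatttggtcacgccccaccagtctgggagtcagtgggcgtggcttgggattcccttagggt
Ndufa11: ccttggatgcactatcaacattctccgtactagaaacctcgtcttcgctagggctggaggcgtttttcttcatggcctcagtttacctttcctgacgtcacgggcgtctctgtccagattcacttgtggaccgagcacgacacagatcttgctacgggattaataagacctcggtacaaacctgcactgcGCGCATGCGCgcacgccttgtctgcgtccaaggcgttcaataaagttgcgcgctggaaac
Atp5g2: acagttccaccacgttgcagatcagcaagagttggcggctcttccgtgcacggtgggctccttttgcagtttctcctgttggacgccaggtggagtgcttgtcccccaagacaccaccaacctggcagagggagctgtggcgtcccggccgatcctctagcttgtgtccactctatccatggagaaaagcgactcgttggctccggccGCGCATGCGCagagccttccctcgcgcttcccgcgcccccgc
Neither of the first 2 runs held a match. Ndufa10 had a TGACNNNGC match in the 50 bases after its start, which are not printed.

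The arrays gave the mean bead intensity of each probe, on the log2 scale here after background correction and quantile normalization. Probes detected on at least 3 arrays were kept, and each gene was read from its brightest kept probe, giving 13280 genes tested. The cells matched their label in part: 7 of 10 lung epithelial markers were kept, among them Krt8, Krt18, Cdh1 and Nkx2-1, whereas Epcam, Cldn4 and Sftpc were detected on 0 arrays. The fibroblast markers Dcn and Lum, the pan-leukocyte gene Ptprc and the endothelial gene Pecam1 were also detected on 0 arrays. Of the other cell types, 2 of 8 fibroblast markers were kept (Pdgfra on 7 arrays and Col1a2 on 4), 2 of 7 leukocyte markers (Cd68 on 11 and Csf1r on 5) and 2 of 6 endothelial markers (Kdr on 11 and Tek on 3). Among the kept markers, Foxa2 of epithelium was called higher in 12 arrays by 1.32 ± 0.13 with CDDO-Im and 1.43 ± 0.13 with CDDO-Me. Pdgfra of fibroblasts was called higher by 1.80 ± 0.19 and 1.30 ± 0.20. No other epithelial marker was called in 12 arrays with either compound. The medians of the 7 epithelial markers were 0.0354 and 0.0976, with 2 below 0 with each compound. In 10 arrays they were -0.115 and -0.143, with 5 and 6 below 0. The part of Foxa2 and Pdgfra in the results was not tested. 2 of the 12 arrays stood apart. DMSO replicate 1 and CDDO-Im replicate 2 had median correlations of 0.916 and 0.936 with the other 10 arrays, which ranged from 0.99 to 0.995 among themselves, and both lay on the first chip. These 2 arrays had been singled out with earlier results of the data known, and results on the members are given with 12 arrays and with the 10 others. The treatments were visible in the NRF2 targets Slc7a11, the cystine transporter, and Hmox1, heme oxygenase 1. With 12 arrays, log2 differences from DMSO for Slc7a11 were 3.83 ± 0.17 (SE) with CDDO-Im, 3.72 ± 0.17 with CDDO-Me and 3.39 ± 0.17 with DMF. Those for Hmox1 were 4.41 ± 0.38, 3.80 ± 0.40 and 1.31 ± 0.40, of which the last was not called (limma adjusted p = 0.44). Of 7 such targets, which included Gclm and Nqo1, 7, 7 and 5 were called higher, and 7 with each compound in 10 arrays.

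Of the 76 subunit genes, 66 were tested and 10 were not. Most of the untested ones were tissue-restricted forms of complex IV: Cox6a2 and Cox8b of heart and skeletal muscle, Cox4i2, known from lung, and Cox6b2, Cox7b2 and Cox8c, known from testis. No marker of muscle passed the detection filter (0 of 8 on the array). The others were Ndufs1 and Sdha, which carry catalytic functions of complexes I and II, Uqcrfs1, the Rieske iron-sulfur protein of complex III, and Uqcrq. The only Ndufs1 probe read 50.7 to 87.7 intensity units over the 12 arrays before correction and was detected on 0 of them. Tested members numbered 32 in complex I, 3 in complex II, 5 in complex III, 11 in complex IV and 15 in complex V.

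With all 12 arrays, limma called 0 of the 66 subunit genes with each of the 3 compounds. The background was 1.81% of all genes called with CDDO-Im, 1.42% with CDDO-Me and 0.346% with DMF. At an unadjusted p under 0.05 there were 3 subunit genes with CDDO-Im, 1 with CDDO-Me and 1 with DMF, that is 4.55%, 1.52% and 1.52%, beside 12.7%, 8.07% and 7.07% of all genes. The median log2 difference of the 66 was 0.0795 with CDDO-Im, -0.0158 with CDDO-Me and -0.0377 with DMF, beside 0.0603, -0.00046 and -0.00392 over all genes. Without the 2 arrays, 1 subunit gene was called with CDDO-Im, 2 with CDDO-Me and 2 with DMF, where 10.8%, 11.1% and 8.42% of all genes were called. The count of 0 of 66 with all 12 arrays lies near so low a background, so it cannot separate the subunit genes from other genes. In the fit without the 2 arrays, the shares of subunit genes called were below the background of each comparison. The called members were Ndufa10 of complex I, lower with each compound, Cox7a1 of complex IV, lower with CDDO-Me, and Uqcrb of complex III, higher with DMF.

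**Figure D1:**
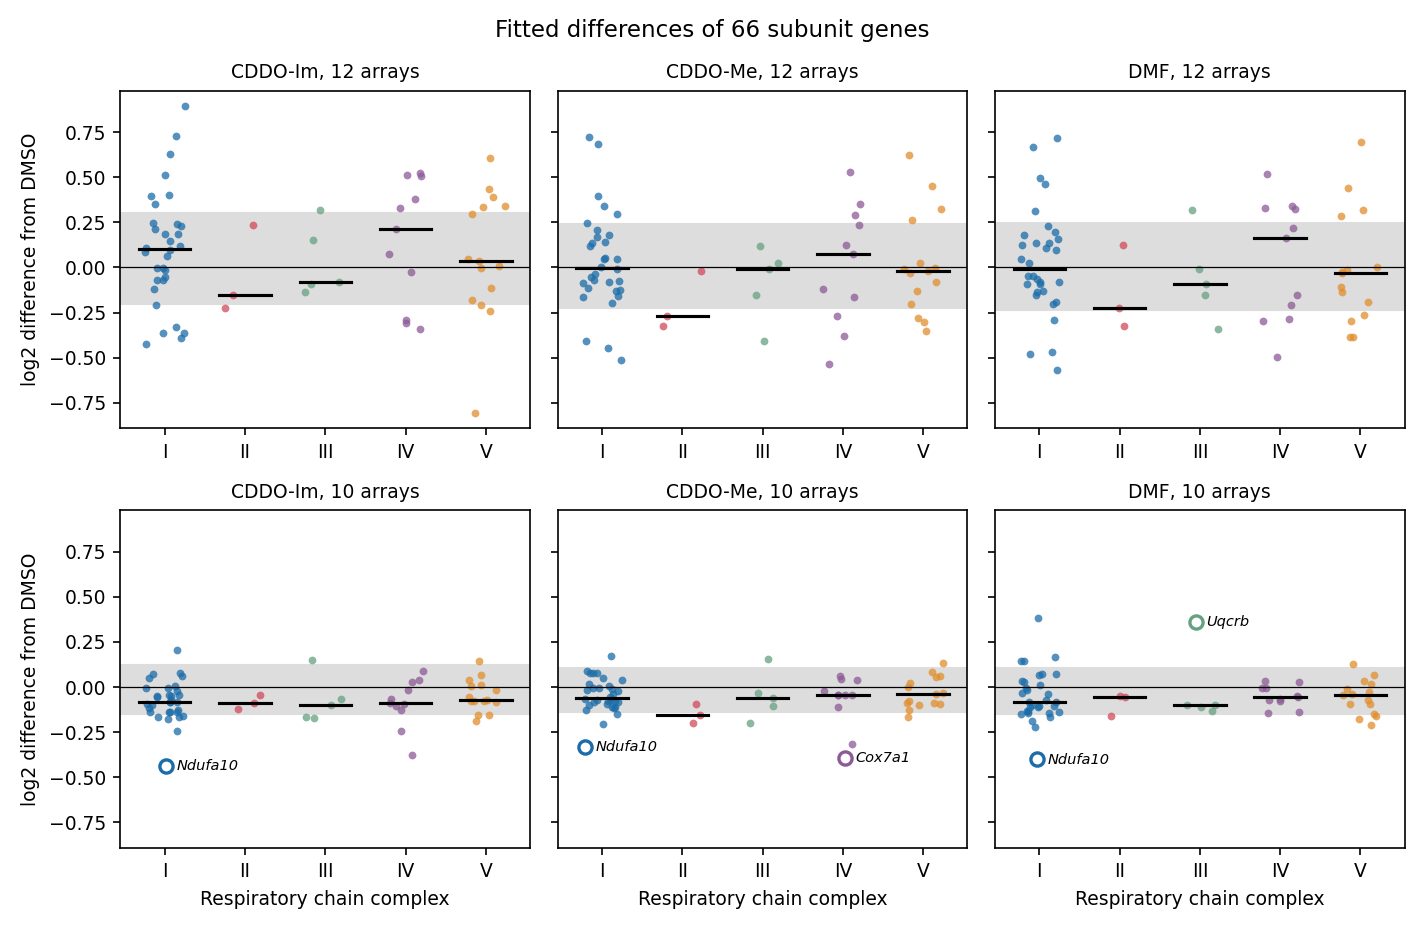
Log2 difference from DMSO of the 66 subunit genes tested (vertical axis), by complex (horizontal axis) and compound (columns), fitted with 12 arrays (top) and with 10 (bottom). Points are genes, bars are medians, open circles are called genes and the grey band runs from the lower to the upper quartile of all genes; the points of the 12-array fit spread from -0.81 to 0.90, and those of the 10-array fit from -0.43 to 0.38.

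Complex by complex, the 12-array medians with CDDO-Im were 0.102 for complex I, -0.153 for II, -0.0792 for III, 0.214 for IV and 0.0343 for V. With CDDO-Me they were -0.005, -0.269, -0.0102, 0.0729 and -0.021. With DMF they were -0.00972, -0.223, -0.0905, 0.162 and -0.0295. No complex had a called member, and the complex with the lowest median, II, had 3 tested genes. Without the 2 arrays the medians of the 5 complexes lay close together, from -0.0981 to -0.0725 with CDDO-Im, from -0.157 to -0.0394 with CDDO-Me and from -0.1 to -0.0466 with DMF. The high median of complex IV in 12 arrays was 0.214 with CDDO-Im, and it was -0.0859 in 10.

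In the 10 arrays most subunit genes lay slightly under DMSO. The log2 difference was below 0 for 51 of 66 with CDDO-Im, 47 with CDDO-Me and 49 with DMF, that is 77.3%, 71.2% and 74.2%, beside 53.3%, 54.2% and 54.4% of all genes. The median was -0.0779, -0.0498 and -0.0698, beside -0.0161, -0.0194 and -0.0205 over all genes. These medians depended on the scaling. With each array scaled to a common median they were 0.0223, 0.117 and -0.0112, beside 0.0351, 0.118 and 0.0206 over all genes. Under cyclic loess they were -0.0529, -0.0325 and -0.0491, beside -0.00391, -0.0104 and 0.00282. They also lay below 0 without background correction, with an offset of 50 and in the authors' normalized matrix. Every array of the compound lay below every DMSO array for 24 subunit genes with CDDO-Im (36.4%), 20 with CDDO-Me (30.3%) and 21 with DMF (31.8%), where 26.3%, 21.9% and 21.8% of all genes did so. The reverse order was found for 1, 1 and 2 subunit genes, where 21.5%, 16.8% and 15.3% of all genes showed it. With 12 arrays the compound arrays lay all below DMSO for 2, 15 and 14 subunit genes, against 5.67%, 13.9% and 14.7% of all genes, and all above for 0 with each compound, against 8.47%, 11.8% and 11.2%.

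How large a change the data leave room for was read from the 95% intervals of the log2 differences, which are per gene and not adjusted. With 12 arrays the interval lay within 1.5-fold of no change for 26 of 66 subunit genes with CDDO-Im, 27 with CDDO-Me and 24 with DMF, and for 24%, 24.4% and 24.3% of all genes. With 10 arrays it did so for 63 of 66 with each compound (95.5%), beside 76.4%, 80.4% and 81% of all genes. The exceptions in 10 arrays were Ndufa10, Cox7b and the probe still named Atp5f1 with CDDO-Im, Cox7a1, Cox7b and Atp5f1 with CDDO-Me, and Ndufa10, Ndufb11 and Atp5f1 with DMF. The probes of Atp5f1 and Ndufb11 were dim, at medians of 99.75 and 96.45 intensity units before correction.

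In complex I, the called member was Ndufa10, an accessory subunit of the membrane arm. Its log2 intensity was 13.22, 12.83 and 12.88 on DMSO arrays 1, 2 and 3. It was 12.46, 12.92 and 12.39 on the CDDO-Im arrays, 12.51, 12.49 and 12.55 on the CDDO-Me arrays and 12.56, 12.31 and 12.47 on the DMF arrays. All CDDO-Me and DMF arrays lay below all DMSO arrays, and CDDO-Im replicate 2 was the only treated array that overlapped DMSO. With 12 arrays the log2 difference was -0.39 ± 0.17 with CDDO-Im, -0.41 ± 0.18 with CDDO-Me and -0.48 ± 0.18 with DMF, with limma adjusted p of 0.383, 0.581 and 0.578. With 10 arrays it was -0.43 ± 0.09, -0.33 ± 0.08 and -0.40 ± 0.08, with adjusted p of 0.0168, 0.0351 and 0.0217. Its level was therefore 0.740 to 0.795 of that in DMSO in the 10-array fit. Within the first chip alone the 3 differences were -0.34, -0.52 and -0.47, and within the second -0.49, -0.36 and -0.49. The first chip held both arrays that stood apart and 1 array each of CDDO-Me and DMF. The second held 1 array each of DMSO and CDDO-Im, so these values are given as sizes only.

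The Ndufa10 calls rested on few arrays. When each of the 10 arrays was left out in turn, Ndufa10 was called in 7 of 10 fits with CDDO-Im, 3 with CDDO-Me and 8 with DMF. Its log2 difference ranged from -0.50 to -0.37, from -0.39 to -0.27 and from -0.46 to -0.34. These counts include fits that left out an array of another compound, which enters the comparison only through the shared spread and chip term. With CDDO-Im its difference stayed at -0.435 in the fits without a CDDO-Me or DMF array. Only those fits and the one without DMSO replicate 2 held that call. With CDDO-Me, all 3 calls came from fits without a DMF array. With DMF, Ndufa10 was also not called without DMF replicate 2 (limma adjusted p = 0.0535). Without DMSO replicate 3, which leaves 1 DMSO array that is assumed to vary like the other groups, it was called with none of the compounds. Median scaling of the 10 arrays also ended the calls, at -0.31, -0.14 and -0.32 with adjusted p of 0.174, 0.46 and 0.132, and cyclic loess ended that with CDDO-Me (adjusted p = 0.0531). Ndufa10 had 1 probe, bright at 5296.9 to 7002.7 intensity units before correction, so no other probe could be compared.

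**Figure D2:**
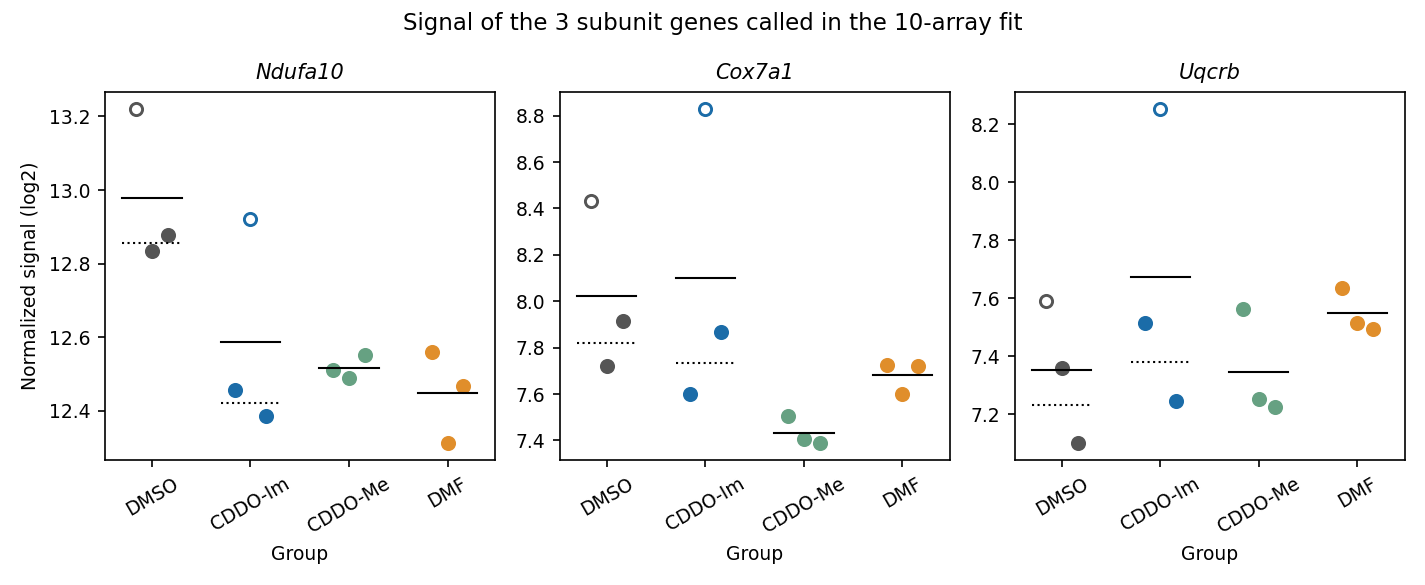
Log2 intensity (vertical axis) of Ndufa10, Cox7a1 and Uqcrb on each of the 12 arrays by group; open points are DMSO replicate 1 and CDDO-Im replicate 2, solid bars the means of 3 arrays and dotted bars the means without the open points. Ndufa10 lay at 12.31 to 12.56 on the 8 filled treated points and at 12.83 and 12.88 on the filled DMSO points.

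Other complex I genes were not called in either fit. Ndufv1, whose protein holds the flavin that takes electrons from NADH, had 12-array differences of -0.02 ± 0.21 with CDDO-Im, -0.17 ± 0.21 with CDDO-Me and -0.20 ± 0.21 with DMF, and -0.13 ± 0.07, -0.07 ± 0.06 and -0.11 ± 0.06 with 10. Ndufb4, an accessory subunit of the membrane arm, had the largest 12-array difference of any subunit gene, 0.90 ± 0.35 with CDDO-Im (adjusted p = 0.341). It read 6.16, 7.34 and 7.53 with DMSO and 7.31, 8.43 and 7.97 with CDDO-Im. DMSO replicate 1 was the lowest and CDDO-Im replicate 2 the highest of the 12 arrays, and the difference was 0.21 ± 0.16 without them.

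Ndufb7 and Ndufb11, also of the membrane arm, were among the genes with an unadjusted p under 0.05 in 10 arrays. Ndufb7 differed by -0.25 ± 0.09 with CDDO-Im, -0.20 ± 0.08 with CDDO-Me and -0.22 ± 0.08 with DMF (adjusted p = 0.129, 0.169 and 0.136), and by -0.36 ± 0.25, -0.45 ± 0.26 and -0.47 ± 0.26 in 12 arrays. Its treated arrays in the 10 lay at 7.51 to 7.71, below the DMSO values of 7.76 and 7.86. Ndufb11 differed by 0.38 ± 0.13 with DMF (adjusted p = 0.115), and by 0.10 ± 0.26 in 12 arrays, where DMSO replicate 1 was its highest array at 6.12. In all, 6 subunit genes with CDDO-Im and 7 each with CDDO-Me and DMF had an unadjusted p under 0.05 in 10 arrays, that is 9.09%, 10.6% and 10.6%, below the 24.6%, 24.8% and 25.1% of all genes.

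Complex II was read from Sdhb, the iron-sulfur subunit, and from the membrane anchors Sdhc and Sdhd. None was called. Sdhb read 11.52, 10.85 and 11.10 on the DMSO arrays and 10.74 to 11.09 on the 9 treated arrays. The groups overlapped with every compound, and DMSO replicate 1 was the highest array. The 12-array differences of Sdhb were -0.22 ± 0.18 with CDDO-Im, -0.32 ± 0.19 with CDDO-Me and -0.33 ± 0.19 with DMF, and the 10-array ones -0.12 ± 0.09, -0.16 ± 0.08 and -0.16 ± 0.08 (lowest adjusted p = 0.254). Sdhc had -0.15, -0.27 and -0.22 with 12 arrays and -0.09, -0.10 and -0.05 with 10. Sdhd had 0.24, -0.02 and 0.13 with 12 arrays and -0.04, -0.20 and -0.06 with 10.

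In complex III, Uqcrb, a small subunit near the quinone site, was the called member. It read 7.59, 7.36 and 7.10 on the DMSO arrays, 7.52, 8.25 and 7.25 on the CDDO-Im arrays, 7.56, 7.25 and 7.23 on the CDDO-Me arrays and 7.64, 7.52 and 7.49 on the DMF arrays. DMF and DMSO overlapped in 12 arrays and did not in 10. The difference with DMF was 0.36 ± 0.07 in 10 arrays (95% interval 0.20 to 0.52, adjusted p = 0.0177), and 0.32 ± 0.21 in 12 (adjusted p = 0.661). The call depended on the chip term: without it the 10-array value was 0.32 with adjusted p = 0.186. The second chip differed from the first by -0.24 for Uqcrb in the 10-array fit (adjusted p = 0.084). Median scaling gave 0.39 with adjusted p = 0.0519, and the call held in 7 of 10 fits that each left out 1 array. All fits without a CDDO-Im or CDDO-Me array held it, and these arrays enter the comparison only through the shared spread and chip term. The call was lost without DMSO replicate 3, and without DMF replicate 2 or 3 (limma adjusted p = 0.0604 and 0.0537). The Uqcrb probe was dim, at 188.7 to 280.2 intensity units before correction, was the gene's only one, and was named by the array alone.

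Uqcrc1, a core protein of complex III, and Uqcrh, the hinge protein that contacts cytochrome c1, were not called. Uqcrc1 read 13.32, 12.40 and 12.62 on the DMSO arrays and 12.28, 12.33 and 12.37 on the CDDO-Me arrays. Its difference with CDDO-Me was -0.41 ± 0.29 in 12 arrays and -0.20 ± 0.08 in 10 (adjusted p = 0.719 and 0.174). All CDDO-Me arrays lay below all DMSO arrays in both fits.

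In complex IV, Cox7a1, the heart and muscle form of a small subunit, read 8.43, 7.72 and 7.92 on the DMSO arrays. It read 7.60, 8.83 and 7.87 with CDDO-Im, 7.50, 7.41 and 7.39 with CDDO-Me and 7.73, 7.60 and 7.72 with DMF. The CDDO-Me arrays lay below every DMSO array. The difference with CDDO-Me was -0.39 ± 0.10 in 10 arrays (95% interval -0.63 to -0.16, adjusted p = 0.0421) and -0.53 ± 0.30 in 12 (adjusted p = 0.719). The values with CDDO-Im and DMF in 10 arrays were -0.09 ± 0.11 and -0.15 ± 0.10, and in 12 arrays 0.08 ± 0.29 and -0.28 ± 0.30. The call with CDDO-Me held in 4 of 10 fits that each left out 1 array and ended under median scaling (-0.26, adjusted p = 0.2). Among the fits without a DMSO or CDDO-Me array, only that without CDDO-Me replicate 1 held it. Its single probe read 252.5 to 324.8 intensity units before correction.

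The ubiquitous subunits of complex IV were not called. Cox5a, which sits on the matrix side, read 11.66, 13.47 and 13.29 on the DMSO arrays and 13.00 to 13.50 on the 9 treated arrays. Its DMSO replicate 1 was the lowest value of the 12 by a wide margin. Its 12-array differences were 0.51 ± 0.38, 0.53 ± 0.39 and 0.52 ± 0.39 with CDDO-Im, CDDO-Me and DMF, and the 10-array differences 0.09 ± 0.09, 0.05 ± 0.08 and 0.03 ± 0.08. Cox4i1, a regulatory subunit, had 12-array differences of 0.21 ± 0.17, 0.13 ± 0.17 and 0.16 ± 0.17, and 10-array ones of -0.01 ± 0.07, -0.04 ± 0.07 and -0.01 ± 0.07. Cox5b, which binds zinc, had -0.24 ± 0.08, -0.11 ± 0.07 and -0.14 ± 0.07 in 10 arrays, where every treated array lay below both DMSO arrays (adjusted p = 0.104, 0.421 and 0.296), and -0.29 ± 0.20, -0.27 ± 0.20 and -0.30 ± 0.20 in 12. With CDDO-Im, Cox6c had the smallest p of complex IV in 12 arrays, at 0.38 ± 0.20 (adjusted p = 0.449), and 0.03 ± 0.10 in 10.

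In complex V, the catalytic beta subunit gene Atp5b lay at 14.65 to 14.83 on all 12 arrays. Its 12-array differences were 0.05 ± 0.13 with CDDO-Im, 0.03 ± 0.13 with CDDO-Me and 0.00089 ± 0.13 with DMF. The 95% intervals all lay within 1.5-fold of no change in both fits. The alpha subunit gene Atp5a1 read 9.16, 11.31 and 11.28 on the DMSO arrays and 10.95 to 11.65 on the treated arrays. Its DMSO replicate 1 was the lowest of the 12 arrays. The 12-array differences were 0.61 ± 0.43, 0.62 ± 0.44 and 0.69 ± 0.44, and those of the 10 arrays 0.01 ± 0.12, 0.05 ± 0.11 and 0.13 ± 0.11. Without DMSO replicate 1 alone they were -0.05, 0.05 and 0.12.

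Atp5pb, the b subunit of the peripheral stalk, had a 12-array difference of -0.81 ± 0.35 with CDDO-Im (adjusted p = 0.38) by its brightest probe. That probe read 12.47, 11.32 and 11.40 with DMSO and 11.28, 10.21 and 11.28 with CDDO-Im. Both arrays that stood apart widened the gap, and the 10-array difference was -0.08 ± 0.07. Atp5g2, which encodes the c subunit of the membrane ring, had -0.21 ± 0.07 with DMF in 10 arrays (adjusted p = 0.115) and -0.38 ± 0.19 in 12 (adjusted p = 0.661). Its DMF arrays read 10.71, 10.66 and 10.73, below the DMSO values of 11.56, 10.87 and 10.97.

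The 2 arrays that stood apart spread the members far more than any other array did. The deviation of an array was taken from the mean of the other arrays of its group, leaving out the array that stood apart. For DMSO replicates 2 and 3 and CDDO-Im replicates 1 and 3, that mean was a single other array. On DMSO replicate 1 the 66 subunit genes deviated by -2.32 to 1.63 with an SD of 0.835, and 51.5% lay beyond 0.5 on the log2 scale. Their median deviation was -0.0599, and that of complex IV -0.571. On CDDO-Im replicate 2 the SD was 0.519 and the median 0.355, with 24 genes above 0.5 and 3 below -0.5. The SD was 0.0938 to 0.232 on the other 10 arrays. Over all genes these 2 SDs were 0.925 and 0.854. The median residual SD of the subunit genes was 0.241 with 12 arrays and 0.0677 with 10, beside 0.309 and 0.108 for all genes.

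**Figure D3:**
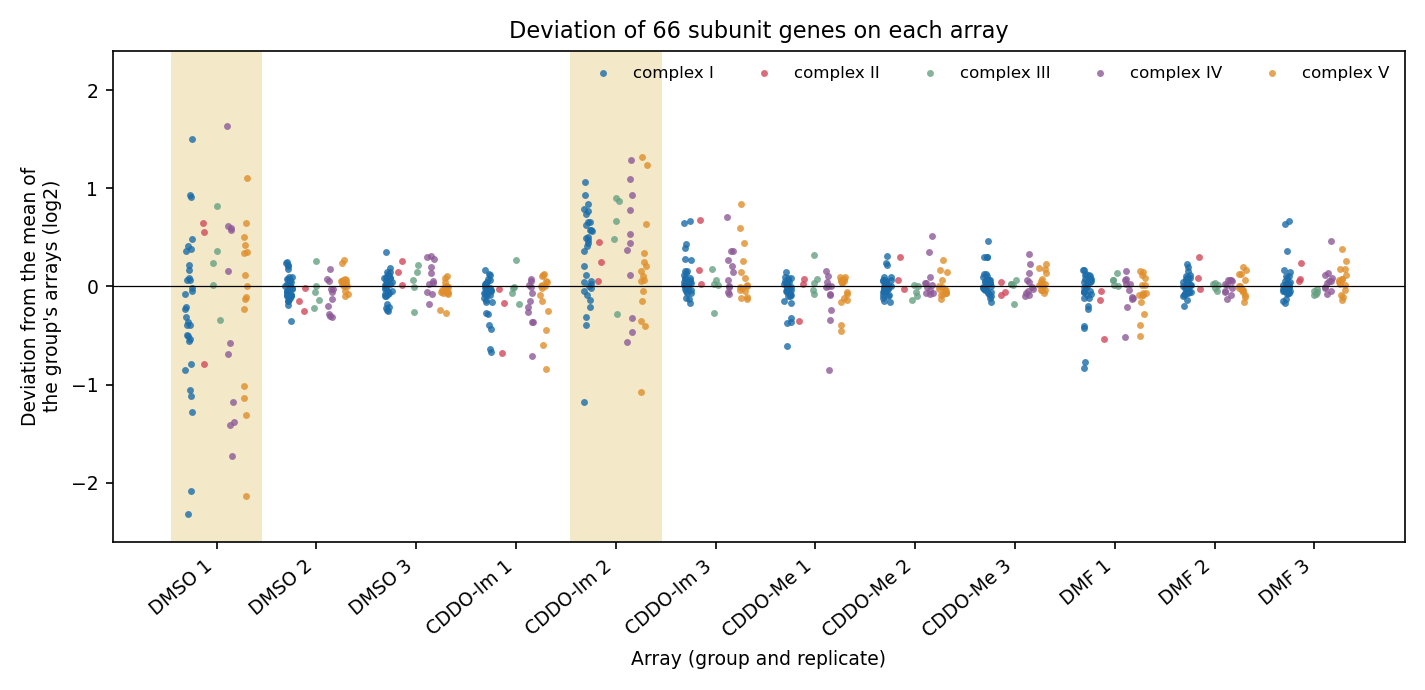
Deviation of each of the 66 subunit genes (log2, vertical axis) on each of the 12 arrays (horizontal axis). It is taken from the mean of the other arrays of the group, leaving out the 2 shaded arrays. The points of DMSO replicate 1 reach from -2.32 to 1.63, and the SD on the 10 unshaded arrays is 0.0938 to 0.232.

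Probes of one gene moved apart on the same 2 arrays. For the 20 subunit genes with several kept probes, the range of the deviations between a gene's probes had a median of 0.504 on the DMSO array and 0.406 on the CDDO-Im array, and of 0.0773 to 0.144 on the others. The range passed 1 for 5, 2 and 0 genes. Over all genes with several probes it passed 1 for 47.5% and 40.8% on the 2 arrays, and for 0.0985% to 1.6% on the others. On DMSO replicate 1 the 3 probes of Atp5pb deviated by 1.11, -0.84 and -1.97, the widest range of a subunit gene. Cross-hybridization, a splice form and sample identity were not tested.

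**Figure D4:**
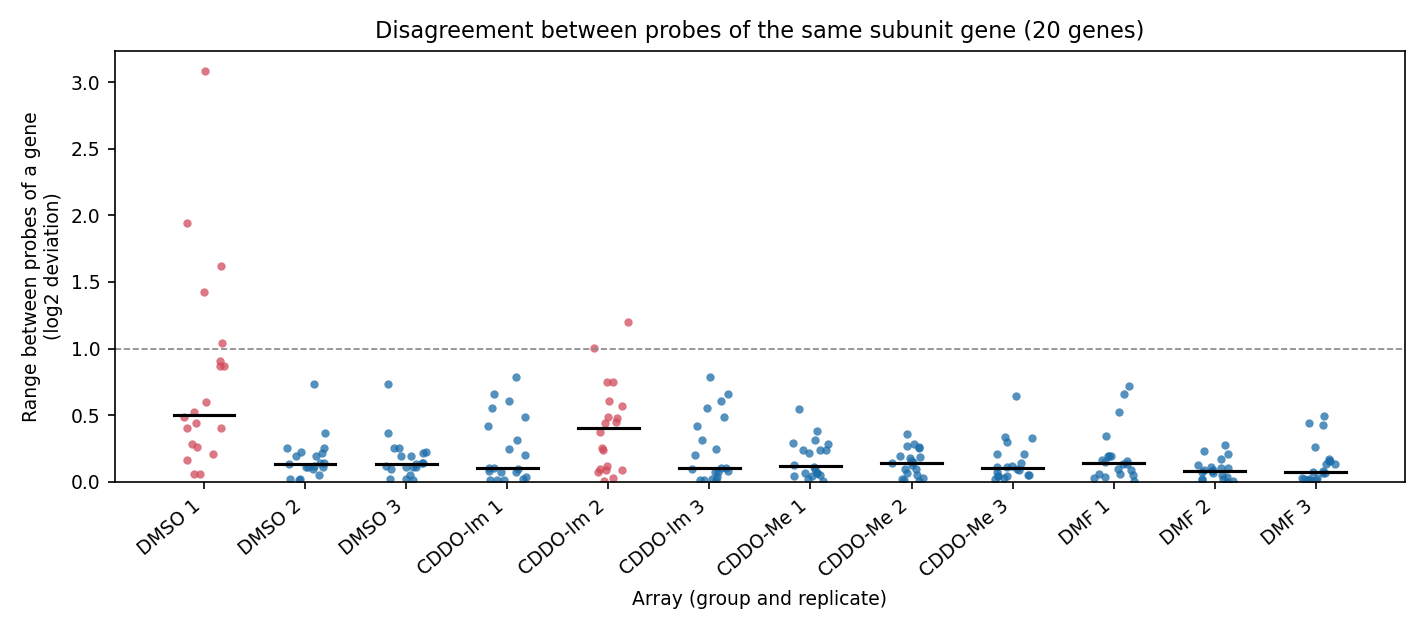
Range between the deviations of a gene's probes (log2, vertical axis) for the 20 subunit genes with several kept probes, on each of the 12 arrays; red points are the 2 arrays that stood apart and the dashed line marks a range of 1. Only red points lie above the line, 5 on the DMSO array and 2 on the CDDO-Im array.

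The log2 differences of a gene's probes had opposite signs for 5 of 20 genes with each compound in 12 arrays. Atp5o, Atp5pb and Cox7a2l were among them with each compound. With 10 arrays the signs were opposite for 8, 9 and 12 genes, among differences that were mostly near 0. Atp5o encodes the stalk subunit that carries oligomycin sensitivity.

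Differences between the chips were also read. In the 10-array fit the chip term called 0 of the 66 subunit genes and 0.248% of all genes, and 12 subunit genes (18.2%) had an unadjusted p under 0.05, beside 15% of all genes. The 3 widest gaps, named after their values were seen, were higher on the second chip: Cox7b by 0.61 (adjusted p = 0.0508), Ndufb4 by 0.58 (0.066) and Ndufb9 by 0.48 (0.145). Cox7b, a small complex IV subunit, read 7.54 on the first chip and 7.86 on the second with DMSO, 6.97 and 7.68 with CDDO-Im, 6.92 against 7.83 and 7.71 with CDDO-Me, and 7.41 against 7.79 and 8.06 with DMF. Among the 10 arrays, those of the second chip lay above those of the first in every group. The fitted differences above hold the chip as a term unless stated otherwise. The counts of arrays all above or all below DMSO do not.

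**Figure D5:**
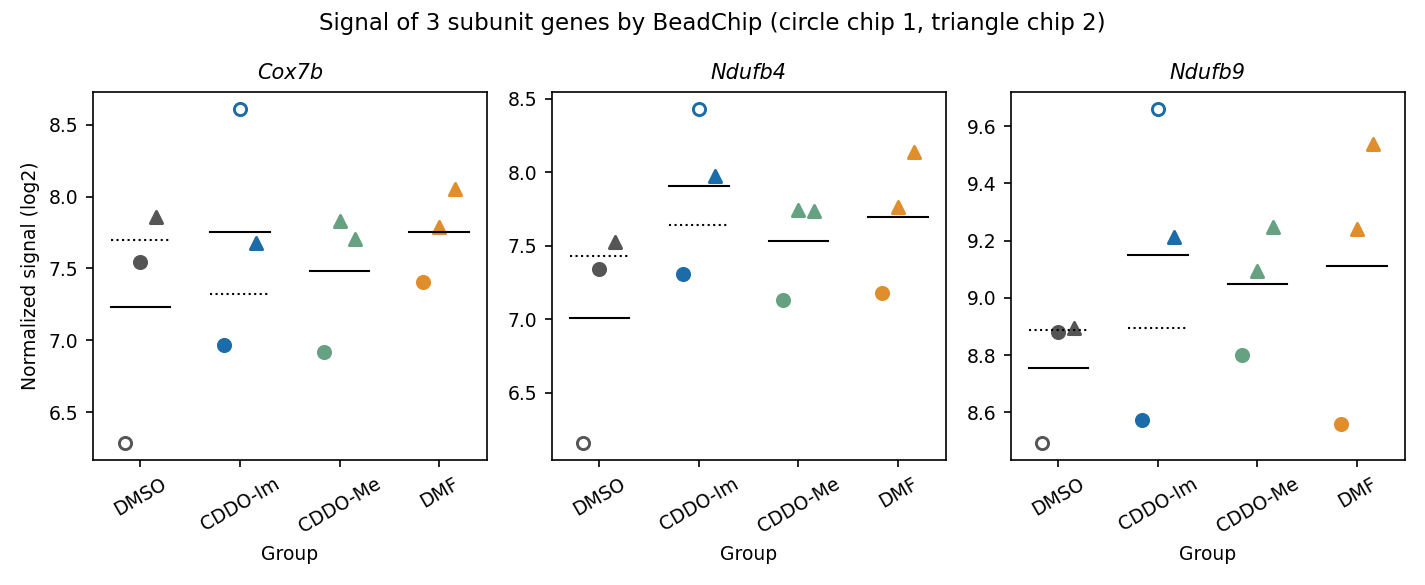
Log2 intensity (vertical axis) of Cox7b, Ndufb4 and Ndufb9 on the 12 arrays by group, with circles for the first chip, triangles for the second, open circles for the 2 arrays that stood apart, solid bars for means of 3 arrays and dotted bars for means without the open circles. Leaving out the open circles, the triangles lie above the circle in every group.

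No subunit gene was called in 12 arrays, so no motif group could hold a call there. In 10 arrays 10.8%, 11.1% and 8.42% of all genes were called with CDDO-Im, CDDO-Me and DMF. Counts of called genes in groups as small as those below cannot be told apart from these shares. The 5 genes with the 10-letter NRF1 motif, Atp5g2, Atp5k, Cox6a1, Ndufa11 and Uqcrc1, had 10-array differences of -0.16 to -0.05 with CDDO-Im, -0.20 to 0.06 with CDDO-Me and -0.21 to -0.06 with DMF, with 0 called. Their medians were -0.105, -0.0889 and -0.131 in 10 arrays and -0.21, -0.38 and -0.383 in 12. The 8 genes with TGACNNNGC included Ndufa10, the only 1 of them called in 10 arrays, and had medians of -0.115, -0.0698 and -0.14 in 10 arrays and -0.106, -0.145 and -0.211 in 12. Atp5g3 and Sdhd, the genes with TCAAGGTCA, had medians of -0.00332, -0.0606 and 0.00702 in 10 arrays and 0.289, 0.215 and 0.282 in 12.

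Genes that work with the respiratory chain were read from lists. Of 37 assembly factors, 7 mitochondrially encoded subunits, 17 citric acid cycle genes and 14 genes of ATP exchange, pores and protein import that were tested, 0 were called in either fit. Over all genes, 1.81%, 1.42% and 0.346% were called with CDDO-Im, CDDO-Me and DMF in 12 arrays, and 10.8%, 11.1% and 8.42% in 10. For lists of this size, 0 in 12 arrays lies near the background. The smallest 10-array p among assembly factors belonged to Foxred1 with CDDO-Im, at -0.25 ± 0.07 (adjusted p = 0.0517), and to Sdhaf1, which serves complex II, at -0.24 ± 0.07 with CDDO-Me and -0.25 ± 0.07 with DMF (adjusted p = 0.0664 and 0.0683). In 12 arrays these 3 values were -0.14 ± 0.13, 0.02 ± 0.23 and 0.01 ± 0.23. Among mitochondrially encoded genes, mt-Nd4l of complex I differed by 0.49 ± 0.15 with DMF in 10 arrays (adjusted p = 0.0888) and 0.31 ± 0.34 in 12, and by -0.62 ± 0.33 with CDDO-Im in 12 (adjusted p = 0.446) and -0.04 ± 0.17 in 10. In the citric acid cycle list the smallest p in 12 arrays was that of Pcx, pyruvate carboxylase, with CDDO-Im (0.84 ± 0.24, adjusted p = 0.176), and in 10 arrays that of Fh1, fumarase, with CDDO-Me and DMF (-0.22 ± 0.08 and -0.24 ± 0.08, adjusted p = 0.115 and 0.0964).

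Called genes were found in 3 lists, to be read beside the shares of all genes called that are given above. Among 19 electron carrier and coenzyme Q genes, Gpd2, the mitochondrial glycerol phosphate dehydrogenase that also feeds electrons to ubiquinone, fell in 10 arrays by 0.35 ± 0.08, 0.32 ± 0.07 and 0.44 ± 0.07 on the log2 scale with CDDO-Im, CDDO-Me and DMF (adjusted p = 0.0255, 0.027 and 0.00965), and had -0.20 ± 0.14, -0.28 ± 0.15 and -0.40 ± 0.15 in 12, not called. Coq10b, a coenzyme Q binding protein, rose by 0.48 ± 0.12 with CDDO-Im in 10 arrays (adjusted p = 0.0368), and had 0.86 ± 0.49 in 12 (adjusted p = 0.459). Among 24 biogenesis regulators, the nuclear receptor gene Ppard rose in 12 arrays by 1.42 ± 0.16 with CDDO-Im and 1.17 ± 0.16 with CDDO-Me (adjusted p = 0.00146 and 0.00672), and by 1.4 ± 0.07, 1.25 ± 0.07 and 1.01 ± 0.07 with the 3 compounds in 10. The coactivator genes were called in opposite directions and with different compounds in 10 arrays: Ppargc1b at -0.64 ± 0.14 with CDDO-Im (adjusted p = 0.0237) and Ppargc1a at 0.83 ± 0.17 with CDDO-Me (adjusted p = 0.0154). In 12 arrays they had -0.66 ± 0.42 and 0.91 ± 0.24 and were not called. Sirt1, a deacetylase gene, rose by 0.38 ± 0.09 with CDDO-Me in 10 arrays (adjusted p = 0.039), and had 1.03 ± 0.62 in 12 (adjusted p = 0.719). Whether these differed between compounds was not tested. Of the other biogenesis regulators, Nrf1, Gabpa, Esrra and Tfam were not among the called genes of either fit.

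Of 72 mitochondrial ribosome genes, Mrpl14 was called in 12 arrays, higher by 1.06 ± 0.15 with CDDO-Im and 0.92 ± 0.15 with CDDO-Me, and in 10 arrays with each compound, at 1.03, 0.98 and 0.55. Mrpl51 rose in 10 arrays by 0.35, 0.30 and 0.40, and had -0.12, 0.35 and 0.45 in 12, not called. In 10 arrays 2 of the 72 were called higher with each compound, and 1, 1 and 3 were called lower. Over all genes, 10.8%, 11.1% and 8.42% were called in either direction. Mrpl49 fell by 0.37 with CDDO-Im, 0.32 with CDDO-Me and 0.27 with DMF on the log2 scale, and with DMF Mrpl55 fell by 0.43 and Mrps34 by 0.32. In 12 arrays Mrpl49 had -0.22, -0.38 and -0.33, and with DMF Mrpl55 had -0.68 and Mrps34 -0.56, none of them called. The medians of the 72 in 10 arrays were -0.0643, -0.0393 and -0.0656, near those of the subunit genes.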

How the data were processed

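RNA of 12 VC1 cell samples was hybridized to Illumina mouse WG-6 arrays on 2 BeadChips. The deposited tables hold the mean bead intensity of each probe and a detection p-value per array, exported with the GenomeStudio Gene Expression module 1.9.0 without normalization, per the file headers. How the authors made their normalized intensity matrix, used as an alternative, is not given in the sources used here. Intensities were corrected by normexp (offset 16), quantile normalized and put on the log2 scale with limma 3.58.1 in R 4.3.3. Probes with a detection p-value under 0.05 on at least 3 arrays were kept (19211 of 45281). Names were updated by Entrez number (29586 probes) or accession (2759) through a RefSeq gene table, and 12936 probes kept the array's name. The brightest kept probe stood for a gene, which left 13280 genes. A single limma fit of the 4 groups held the chip as a term, and each compound was tested against DMSO, two-sided, with Benjamini-Hochberg adjustment over all genes tested and a threshold of 0.05. Standard errors (±) and 95% intervals come from this fit, with 7 residual and 2.87 prior degrees of freedom for 12 arrays and 5 and 3.17 for 10. The number of arrays limits the precision.

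The members and lists were chosen with earlier results of these data known. Up to 3 called genes per complex and compound were named, or else the gene with the smallest p, with core subunits and tissue forms named in any case. Other genes named for their chip gap, probe disagreement or arrays were chosen after their values were seen, as were the assignment of Ndufa4, the counts of intervals, chip terms and probe ranges, and the fits leaving out each of the 10 arrays. Ndufa4l2 had no matching probe and was not analysed here. The fits were tested on simulated data, with changes added to a small share of genes drawn from all those tested. The simulated noise was independent and normal, with the same SD for a gene on every array, whereas 2 of the real arrays deviated far more than the others. The shares found below hold for that setting and may differ from those in the real data. With CDDO-Im, CDDO-Me and DMF the 12-array fit found 5.97%, 7.46% and 2.99% of 1.5-fold changes. It found 31.3%, 31.3% and 22.4% of 2-fold changes. The 10-array fit found 59.7%, 70.1% and 49.3% of 1.5-fold changes, and 86.6%, 83.6% and 89.6% of 2-fold ones. Alternatives covered background correction, normalization, filter, choice of probe, covariates and arrays. Motifs were searched with Python 3.11.15 and pandas 2.3.3, and figures drawn with matplotlib 3.10.9. A result on 1 further gene is not reported here.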

Additional observations from a re-analysis of the deposited data

How the results depend on the processing

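With 12 arrays, 0 subunit genes were called under every alternative tried except array weights and the 10-array fits. Weighting the arrays gene by gene, chosen after seeing the data, gave DMSO replicate 1 and CDDO-Im replicate 2 weights of 0.0322 and 0.0419 and called 10, 8 and 9 subunit genes with CDDO-Im, CDDO-Me and DMF, and 3633, 3124 and 3012 of all genes. The planned default weights did not converge (0.0113 to 113000) and were not used; they would have called 60, 33 and 41 subunit genes. With 10 arrays 1, 2 and 2 subunit genes and 1428, 1473 and 1118 genes were called, and 1, 2 and 2 and 1394, 1455 and 1071 after normalizing them again, against 240, 189 and 46 with 12. Median scaling gave 105 genes with CDDO-Im and 121 with CDDO-Me. Fits of only the 2 groups compared gave 3, 27 and 1 genes, chip 1 alone 0, 0 and 0, and chip 2 alone 403 with CDDO-Me and 147 with DMF. With DMF, cyclic loess gave 87, the authors' normalized matrix 86 and no chip term 80. Leaving out each of the 12 arrays in turn called 101 to 383, 42 to 327 and 23 to 121 genes and 0 subunit genes, with subunit medians of -0.0329 to 0.181, -0.0539 to 0.0106 and -0.0533 to -0.0152. The subunit median with CDDO-Im was -0.0684 with gene-by-gene weights, -0.0588 on chip 2 alone, -0.0779 with 10 arrays and -0.0751 after normalizing them again. Under median scaling it was 0.261 with CDDO-Me and 0.156 with DMF, where the median of all genes was 0.219 and 0.124; the cause of these shifts was not tested. Deviations of samples that share a replicate number correlated at -0.296 to 0.363 (median 0.1345, over 0.1 in 10 of 18 pairs), beside a median of -0.0413 for samples of different number (over 0.1 in 7 of 36). The pairs of replicates 3, all on chip 2, had 0.147 to 0.363. Since not every pair passed 0.1, the main fit took no pairing. These deviations were taken from group means that held the 2 arrays that stood apart, and the pairs of replicates 1 and 3 shared a chip. The correlations therefore cannot decide if the numbers pair the samples. A replicate block in place of the chip called 0 subunit genes and 231, 183 and 59 genes, with subunit medians of 0.0795, -0.0152 and -0.0341. In 10 arrays that block, added after seeing the data, called 2, 2 and 3 subunit genes: Ndufa10 and Ndufb4 with CDDO-Im, Ndufa10 and Cox7a1 with CDDO-Me, and Ndufa10, Ndufb4 and Atp5a1 with DMF; Uqcrb with DMF was 0.243 (adjusted p = 0.138). None of the named genes was called in the 12-array fit. Under the alternatives, 1036 of their values were again not called and moved by no more than the SD of the compound's arrays. These values could change sign, and the SD for CDDO-Im held replicate 2, which stood apart. Another 345 values were not called and moved further, and 77 passed the threshold in the direction of the 12-array fit.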
